A study of Bos taurus with 10 samples.

Results

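A set of 8 keratin genes is described here across epithelial cells of the bovine oviduct. They were chosen by name: 4 keratins of simple, single-layered epithelium (KRT7, KRT8, KRT18 and KRT19) and 4 of basal or stratified epithelium (KRT5, KRT14, KRT15 and KRT17). All 8 were found among the 24596 features of the deposited table. The cells were isthmus epithelium, from the uterine end of the oviduct, and the heifers (Bos taurus) formed 2 groups. The cyclic group (5 libraries) had a sham transfer, and the pregnant group (5 libraries) had received 50 presumptive zygotes produced in vitro. The labels give no age, breed, day of sampling or batch. They leave unstated whether libraries came from separate animals, so errors and p-values measure the spread between libraries. The 8 genes were named with earlier results of the pregnant and cyclic libraries in view, so their values in that comparison are a description and support nothing on their own.

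Keratins are the intermediate filament proteins of epithelial cells. A filament forms only when an acidic (type I) keratin pairs with a basic (type II) keratin. KRT8 (type II) and KRT18 (type I) are the founding pair of simple epithelia, and KRT7 (type II) and KRT19 (type I) join them in ducts, glands and the lining of the reproductive tract. KRT5 (type II) pairs with KRT14 or KRT15 (type I) in the basal layer of stratified epithelia such as epidermis, and KRT17 (type I) is a keratin of basal cells, skin appendages and injured epithelium. The oviduct is lined by a single layer of secretory and ciliated cells.

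Levels are given as RPKM, reads scaled to gene length and library size, which allows genes of different length to be set side by side. Pairs of values are given as cyclic, then pregnant, and ± is the SD over the 5 libraries of a group. Library totals recovered from the table ran from 9705283 reads in cyclic library 4 to 26100133 in pregnant library 5. KRT8 rested on 2541 to 6613 reads per library and KRT5 on 390 to 1805, whereas KRT14 rested on 4 to 20 and KRT15 on 0 to 8. Libraries of the same group stood apart. On the first principal component of all tested genes (38.1% of the variance) cyclic library 4 lay at -55.7, far from the other cyclic libraries (-25.7 to 10.5), cyclic library 3 lay at 10.5 and pregnant library 4 at -6.5, while the other pregnant libraries lay between 21.6 and 29.3.

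The simple keratins dominated. Over all 10 libraries KRT18 averaged 141 RPKM, KRT8 133, KRT19 103 and KRT7 36.5 RPKM, which placed KRT18 at rank 347 and KRT8 at rank 376 of all features. Of the basal keratins KRT5 averaged 25.5 RPKM and KRT17 4.16 RPKM, and KRT14 and KRT15 lay at 0.25 and 0.0561 RPKM. KRT18, KRT8 and KRT19 overlapped each other within each group, as did KRT5 and KRT7 among the cyclic libraries. KRT17 lay under KRT5, and KRT14 and KRT15 under KRT17, in every library.

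**Figure D1:**
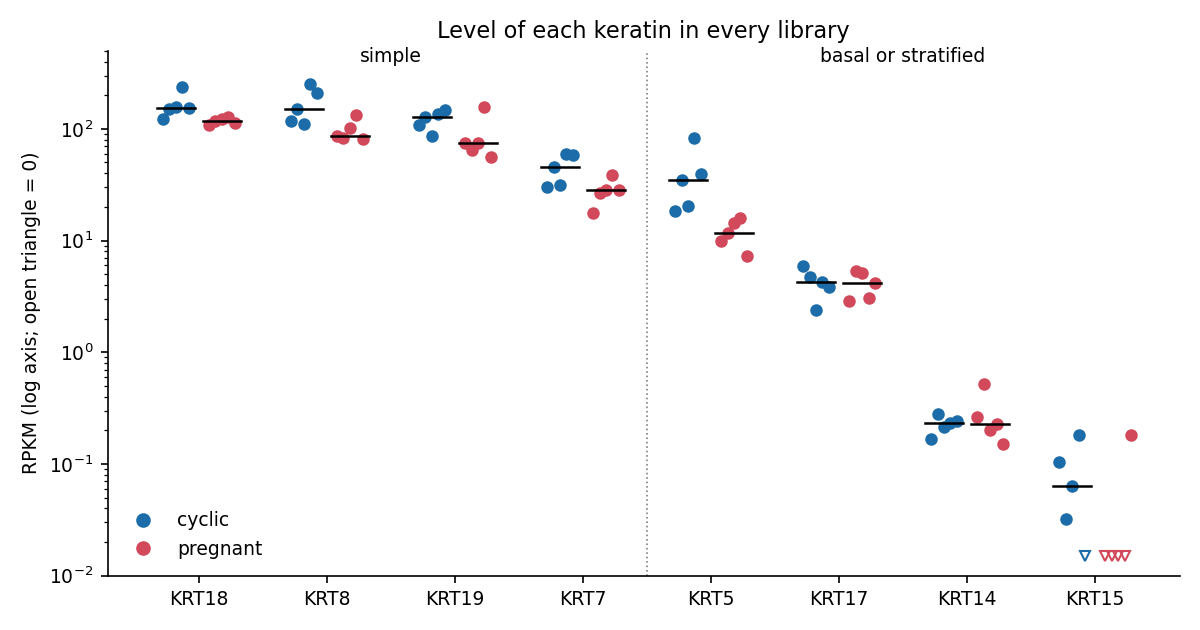
Level of each keratin in every library in RPKM on a log axis, with cyclic libraries in blue, pregnant libraries in red and a bar at each group's median; open triangles at the bottom stand for 0. KRT8, KRT18 and KRT19 lie at 56 to 251 RPKM, KRT14 and KRT15 at 0.52 RPKM or less, and KRT5 is the member whose groups do not overlap.

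KRT8, the type II member of the founding pair, stood at 117, 152, 110, 251 and 208 RPKM in cyclic libraries 1 to 5 and at 86.7, 83, 102, 134 and 80.9 RPKM in pregnant libraries 1 to 5. Cyclic libraries 4 and 5 were highest, and pregnant library 4 lay among the lower cyclic values, so the groups overlapped. The means were 168 ± 60.7 and 97.4 ± 22.2 RPKM, a log2 difference (pregnant minus cyclic, on log2(RPKM + 1)) of -0.73 (95% interval -1.25 to -0.21). In these bulk samples fewer cells of a type and less RNA per cell cannot be told apart.

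KRT18, its type I partner, stood at 123, 150, 157, 235 and 154 RPKM in the cyclic libraries and at 108, 117, 123, 128 and 113 RPKM in the pregnant ones. Cyclic library 4 was again the highest, and the pregnant libraries kept within a narrow band that reached the lowest cyclic values. The means were 164 ± 42.1 and 118 ± 8.02 RPKM (log2 difference -0.44, interval -0.78 to -0.1).

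KRT7 stood at 30.4, 45.9, 31.1, 59.7 and 58.6 RPKM in the cyclic libraries and at 17.7, 26.9, 28.1, 38.3 and 28.2 RPKM in the pregnant ones. Pregnant library 4 was the only pregnant library above any cyclic library. The means were 45.1 ± 14.2 and 27.8 ± 7.29 RPKM (log2 difference -0.66, interval -1.18 to -0.14).

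KRT19, the smallest keratin, which lacks the tail domain of the others, stood at 108, 127, 86.6, 135 and 146 RPKM in the cyclic libraries and at 75.2, 64.1, 74.2, 156 and 56 RPKM in the pregnant ones. Pregnant library 4 was the highest of all 10, and the other 4 pregnant libraries lay below every cyclic library. The means were 120 ± 23.3 and 85 ± 40.2 RPKM, with a log2 difference of -0.57 (interval -1.12 to -0.02), or -0.81 without pregnant library 4.

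KRT5, the type II keratin of basal cells, stood at 18.5, 35.1, 20.3, 82.4 and 39.4 RPKM in the cyclic libraries and at 10, 11.8, 14.3, 15.8 and 7.22 RPKM in the pregnant ones. Every pregnant library lay below every cyclic one, with a narrow gap between pregnant library 4 and cyclic library 1. The means were 39.2 ± 25.8 and 11.8 ± 3.41 RPKM, 3.31 times as high in cyclic heifers, and the log2 difference was -1.48 (interval -2.26 to -0.7). Without cyclic library 4, the shallowest library and the one with the most KRT5, the log2 difference was -1.17.

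The KRT17 groups overlapped throughout. It stood at 5.89, 4.73, 2.4, 4.27 and 3.85 RPKM in the cyclic libraries and at 2.86, 5.37, 5.08, 3.03 and 4.16 RPKM in the pregnant ones, with high and low libraries in each group. The means were 4.23 ± 1.28 and 4.1 ± 1.15 RPKM (log2 difference -0.03, interval -0.49 to 0.43). Cyclic library 4, the highest for KRT5, KRT7, KRT8 and KRT18, ranked 5 of 10 for KRT17.

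KRT14, the usual partner of KRT5, stood between 0.167 and 0.281 RPKM in the cyclic libraries and between 0.151 and 0.52 RPKM in the pregnant ones, from 33 and 48 reads in all. KRT15 had 3, 1, 2, 3 and 0 reads in cyclic libraries 1 to 5 and 0, 0, 0, 0 and 8 reads in pregnant libraries 1 to 5. A count of 0 allows up to 3 reads, which is 0.104 RPKM in pregnant library 3 and 0.0942 RPKM in cyclic library 5 (counting error only). Neither gene reached a mean of 1 RPKM, the limit set for testing, and no difference between the groups was detectable at this depth.

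Of the 8 keratins, 6 passed that limit, and none of them passed an adjusted p of 0.05 (limma-trend with Benjamini-Hochberg adjustment over 12834 features). Of all tested features 0% were called, 3534 had an unadjusted p under 0.05, and voom on the recovered reads also called 0. KRT5 had the lowest adjusted p in the table, 0.0934, which 438 features shared; KRT8 had 0.103, KRT18 0.116, KRT7 0.117, KRT19 0.167 and KRT17 0.944. At an unadjusted p under 0.05, 5 of the 6 lay below 0, beside 11.9% of all tested features, and 1 of the 6 had groups that did not overlap with the pregnant libraries lower, beside 2.05% of all. The median log2 difference of the 4 simple keratins was -0.62, and that of all tested features 0.01. Only 9 of 12834 features had a log2 difference as low as that of KRT5 or lower, and 2.46% one as low as that of KRT8. The calls changed with the libraries kept. Without cyclic library 3, KRT5, KRT8 and KRT7 passed (limma-trend, adjusted p = 0.0324, 0.0379 and 0.0498), beside 8.03% of all features called lower. Over all alternatives the adjusted p (limma) ran from 0.00313 to 0.195 for KRT5, 0.00506 to 0.199 for KRT8 and 0.00615 to 0.24 for KRT7. With array weights, which let limma count libraries unequally, 5 keratins passed, beside 18.3% of all features called lower.

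**Figure D2:**
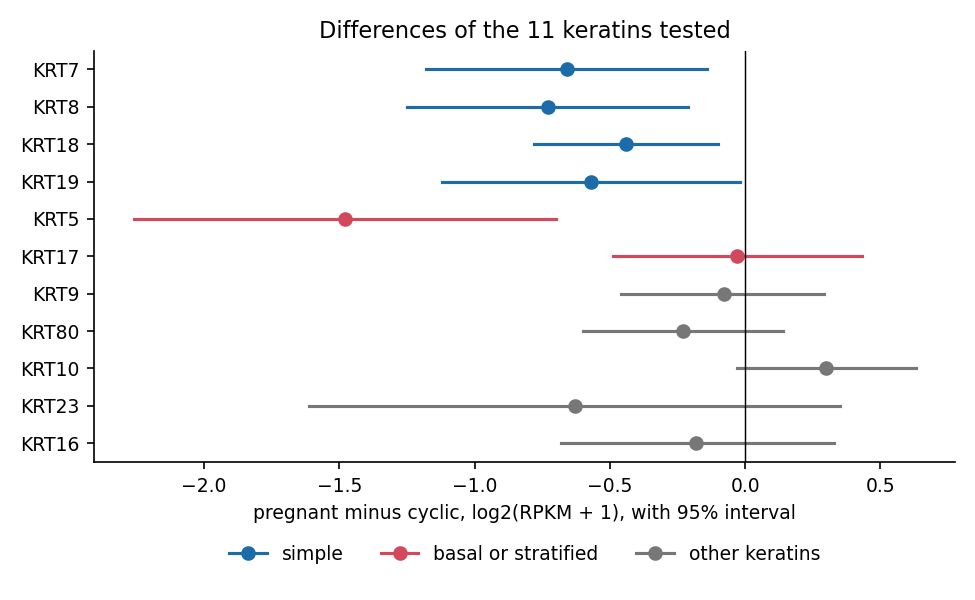
Pregnant minus cyclic difference in log2(RPKM + 1) of the 11 keratins tested, as points with limma's 95% intervals; simple keratins are blue, basal or stratified ones red and other keratins grey. The intervals of KRT5 and the 4 simple keratins lie below 0, from KRT5 at -1.48 to KRT18 at -0.44, while KRT17, KRT9, KRT80, KRT10, KRT23 and KRT16 have intervals that include 0.

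Summed by class, the simple keratins came to 379, 475, 385, 681 and 565 RPKM in the cyclic libraries and to 288, 291, 327, 456 and 278 RPKM in the pregnant ones. The basal keratins came to 24.7, 40.2, 23, 87.1 and 43.5 RPKM in the cyclic and to 13.1, 17.7, 19.6, 19.1 and 11.7 RPKM in the pregnant libraries. The simple sums overlapped through pregnant library 4 and the basal sums did not overlap. The basal sum was mostly KRT5, which made up 75 to 94.6% of it in cyclic and 61.6 to 82.9% in pregnant libraries, so it repeats the KRT5 result. The mean sum was 1.51 times as high in cyclic heifers for the simple class and 2.69 times for the basal class. No test was made of sums or ratios over keratins chosen with these results known.

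Relative to KRT8 the KRT5 groups also stayed apart. For 100 RPKM of KRT8 there were 15.8, 23.1, 18.5, 32.8 and 19 RPKM of KRT5 in the cyclic libraries and 11.5, 14.2, 14, 11.8 and 8.92 RPKM in the pregnant ones, without overlap. The ratio of KRT8 to KRT18 did overlap, at 0.697 to 1.35 in cyclic and 0.709 to 1.05 in pregnant libraries, as did KRT7 for 100 RPKM of KRT8, at 23.7 to 30.2 and 20.4 to 34.8 RPKM. KRT19 relative to KRT18 was highest in pregnant library 4, at 1.21, beside 0.495 to 0.697 in the other pregnant and 0.55 to 0.948 in the cyclic libraries.

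**Figure D3:**
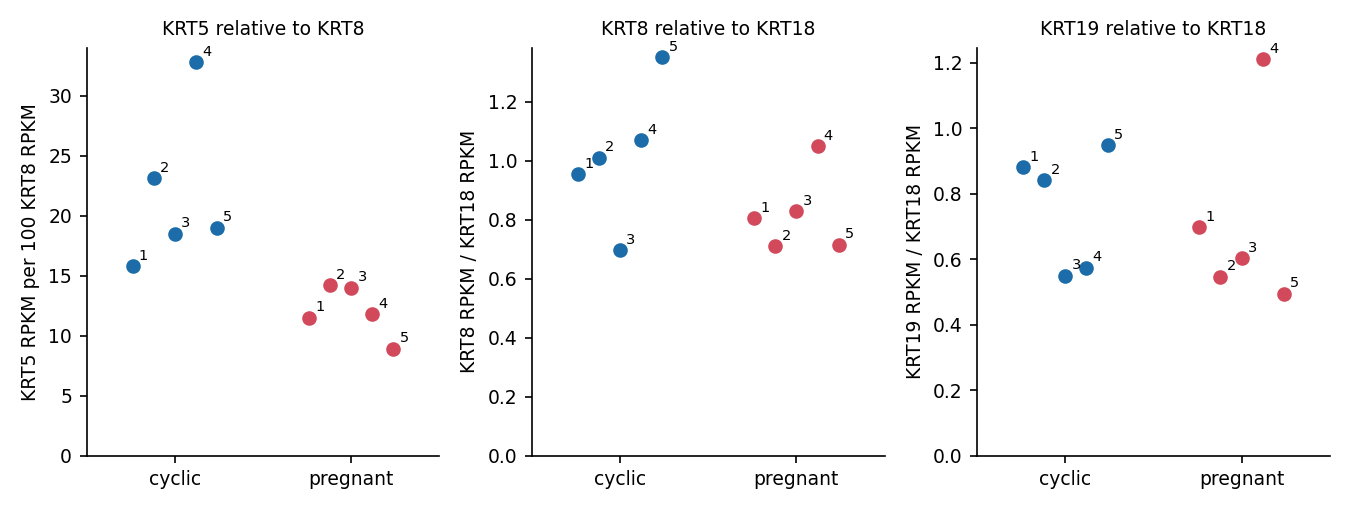
Ratios of RPKM between pairs of keratins in each library (numbers are library numbers within a group): KRT5 per 100 KRT8, KRT8 over KRT18 and KRT19 over KRT18. The ratio of KRT5 to KRT8 is 15.8 or more in every cyclic and 14.2 or less in every pregnant library; the other ratios overlap, and KRT19 over KRT18 is highest in pregnant library 4 at 1.21.

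Of the type I keratins in the basal class, KRT14 and KRT15 were scarce beside KRT5, and KRT17 was less so. KRT14, KRT15 and KRT17 together reached less RPKM than KRT5 in every library, with KRT5 3.01 to 17.6 times as high in cyclic and 1.61 to 4.85 times as high in pregnant libraries. Over the 8 keratins the type II members (KRT5, KRT7 and KRT8) came to 0.848 ± 0.178 of the type I members and 0.661 ± 0.0356, with cyclic libraries 4 and 5 above 1 (1.05 and 1.01). With the 5 other keratins of at least 1 RPKM counted, among them the abundant type I KRT9, the ratio was 0.575 ± 0.119 and 0.412 ± 0.0603, and cyclic libraries 4 and 5 stood at 0.717 and 0.677. These are ratios of transcript, not of protein.

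The order of libraries was partly similar for 5 of the 8 keratins (KRT5, KRT7, KRT8, KRT18 and KRT19). Pearson correlations between pairs of them, on the log2 scale, ran from 0.59 (KRT18 with KRT19) to 0.96 (KRT5 with KRT8). With the group means taken out, these 2 pairs stood at 0.32 and 0.92. Cyclic library 4, at the far end of the first principal component, ranked 1 of 10 for KRT5, KRT7, KRT8 and KRT18 and 3 for KRT19. Pregnant library 5, at the other end, ranked 10 for KRT5, KRT8 and KRT19, but 9 for KRT18 and 7 for KRT7. Cyclic library 3 ranked 2 for KRT18 but 6 for KRT8 and KRT19. Pregnant library 4 ranked first among the pregnant libraries for each of these 5 genes. The same library also held the highest pregnant value of DSP, JUP, HSPB1 and MUC1.

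**Figure D4:**
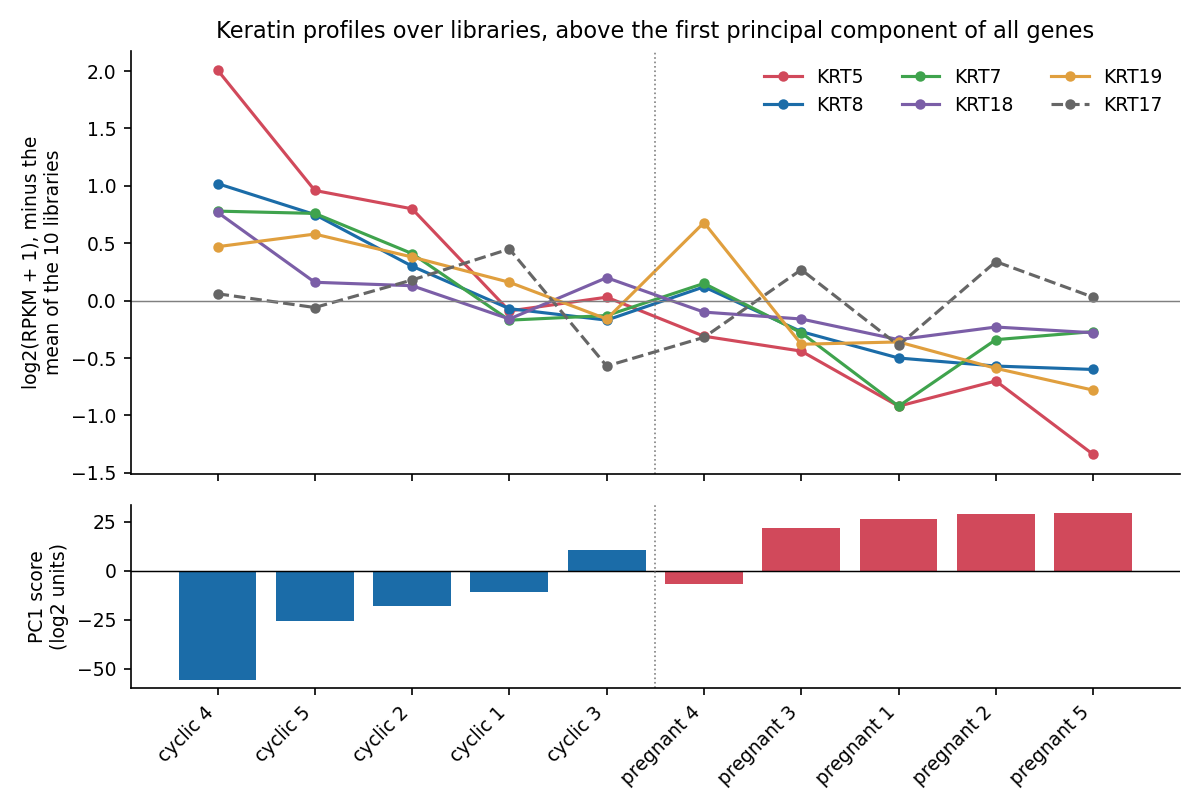
Upper panel: log2(RPKM + 1) of the 6 tested keratins in each library minus the gene's mean over the 10 libraries. Lower panel: score of each library on the first principal component of all tested genes, with libraries ordered by it within each group. KRT5 runs from 2.01 in cyclic library 4 to -1.34 in pregnant library 5, and KRT8 follows in smaller steps. KRT7 and KRT18 are also highest in cyclic library 4 but lowest in pregnant library 1 (-0.92 and -0.34). KRT18 ranks 2 of 10 in cyclic library 3 (0.2). KRT19 peaks in pregnant library 4 at 0.68, and KRT17 (dashed) does not follow the order of KRT5.

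The genes most like KRT8 over the 10 libraries were PARP1, a sensor of DNA breaks, EFTUD2, a GTPase of the spliceosome, MOB3A, RNF26 and the uncharacterised ENSBTAG00000047000. Each had a Pearson correlation of 0.99 with KRT8 on the log2 scale, with Spearman correlations of 0.95 to 1. Those most like KRT5 were MAP3K4, a kinase of stress signalling, LASP1, an actin-binding protein, MAP4, which binds microtubules, SEPT5, a septin, and KDM3B, a histone demethylase, also at 0.99, with Spearman correlations of 0.96 to 1. These values describe likeness only. They include the shift between groups and between libraries. With the group means taken out, the Pearson correlations of the named genes stood at 0.97 to 0.98. Likeness was common: 681 of 12828 other features (5.31%) had a correlation of at least 0.9 with KRT8, and 374 (2.92%) with KRT5.

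The 10 listed markers of basal cells gave a mixed picture. TP63, a transcription factor of basal cells in stratified epithelia, averaged 0.131 ± 0.0851 and 0.135 ± 0.0353 RPKM. NGFR, a surface receptor of basal cells, averaged 0.0542 and 0.0302 RPKM, SNAI2 0.126 and 0.0746, and DLK2 0.0404 and 0.0594. These 4 genes stayed under 1 RPKM in every library, and the other 6 passed the limit for testing. S100A2 averaged 135 and 161 RPKM, ITGB4 50.2 and 39.2, ITGA6 39.9 and 51.2, CDH3 5.05 and 4.26, DAPL1 3.44 and 4.24, and COL17A1 3.19 and 1.71 RPKM. COL17A1 alone among the 6 was lower in every pregnant than in every cyclic library, beside 2.05% of all tested features. Of the 6, 3 had log2 differences below 0 and 3 above (median -0.02). The list of 10 genes summed to 154 to 358 RPKM in cyclic and 198 to 320 RPKM in pregnant libraries. Of 13 matched genes of squamous differentiation 4 were tested: DSC3, a desmosomal cadherin, averaged 14.9 and 20.9 RPKM, PKP1 2.42 and 1.66, SCEL 2.01 and 1.86, and DSG3 1.38 and 1.9 RPKM. LOR, SPRR3 and CRNN were at 0 in all libraries, and IVL, which encodes involucrin of the cornified envelope, reached at most 0.182 RPKM. The squamous list summed to 20.1 to 29.5 and 14.7 to 38.1 RPKM, most of it DSC3. Whether basal cells were present was not tested, and KRT5, KRT14, KRT15 and KRT17 are called basal keratins here by name only.

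Markers of other cells were set beside the keratins. EPCAM, an adhesion molecule of epithelial cells, averaged 365 ± 39.1 and 330 ± 15.4 RPKM (log2 difference -0.14). Relative to EPCAM, KRT8 stood at 0.467 ± 0.185 and 0.297 ± 0.0726, and KRT5 per 100 RPKM of EPCAM at 4.83 to 23.3 in cyclic and 2.21 to 4.9 in pregnant libraries, which just overlapped. The 8 secretory genes summed to 5777 to 11906 RPKM in cyclic and 1790 to 4455 RPKM in pregnant libraries, and the 12 ciliated genes to 956 to 1298 and 879 to 942 RPKM. Cyclic library 4 held the highest sum of both lists. The secretory sum was mostly OVGP1, the oviduct-specific glycoprotein (5760 and 2050 RPKM), and CLU, clusterin (1651 and 500 RPKM). Of the 8 genes 6 had log2 differences below 0 and 2 above (median -0.36). MUC1 stood at -1.78, CLU at -1.63, OVGP1 at -1.61, MSX1 at -0.45, ESR1 at -0.27, EPCAM at -0.14, PAX8 at 0.02 and SOX17 at 0.04. Of the 11 ciliated genes tested 10 had log2 differences below 0 and 1 above (median -0.29). They ran from FOXJ1 at -0.83 to CCDC39 at 0.96, with CCDC40 at -0.07 and TEKT1 at -0.05. DNAI1 and DNAH9 were lower in every pregnant than in every cyclic library, beside 2.05% of all tested features. Mesothelial cells, which cover the outer surface of the oviduct, also make simple keratins. Their 8 markers summed to 109 to 302 RPKM in cyclic and 60.8 to 205 RPKM in pregnant libraries, with the highest sum in cyclic library 4. WT1 averaged 103 and 99.7 RPKM, MSLN 85.6 and 31.5, UPK3B 7.61 and 3.93, and UPK1B 4.01 and 2.82 RPKM. The other 4 markers, CALB2, LRRN4, BNC1 and PKHD1L1, averaged under 1 RPKM in each group. Stromal markers summed to 52 to 87 RPKM in cyclic and 29.6 to 52 RPKM in pregnant libraries. Among them FBLN1 averaged 27.8 and 9.2 RPKM (log2 difference -1.48). The log2 difference was -0.8 for COL1A2, -0.41 for COL3A1, -0.27 for DCN, -0.24 for VIM, -0.08 for THY1 and 0.15 for LUM. Smooth muscle markers summed to 19 to 39.5 and 18.8 to 50.8 RPKM. Endothelial markers summed to 7.86 to 18.9 and 8.08 to 19.7 RPKM, and leukocyte markers to 11 to 21.3 and 12 to 20.3 RPKM. Of these lists only LOR, SPRR3 and CRNN were at 0 in every library. The part of any of these cells in the keratin values was not tested.

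Beyond the 8, the list of 46 other keratins matched 43 features, of which 16 were at 0 in every library, 22 averaged under 1 RPKM and 5 were tested. None of the 5 was called, and their median log2 difference was -0.18. KRT80, a type II keratin of many epithelia, averaged 10.9 ± 2.5 and 9.06 ± 1.56 RPKM (log2 difference -0.23). KRT10, the type I keratin of upper epidermis, averaged 3.99 ± 0.58 and 5.19 ± 1.19 RPKM (log2 difference 0.3). KRT23 ranged among the cyclic libraries from 0.87 RPKM in cyclic library 5 to 10 RPKM in cyclic library 3, with 0.946 to 2.83 RPKM in the pregnant libraries. KRT16 averaged 1.57 and 1.22 RPKM.

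KRT9, in other species a type I keratin of palm and sole skin, stood as high as the simple keratins, at 108, 157, 122, 181 and 160 RPKM in the cyclic libraries and at 145, 136, 140, 101 and 160 RPKM in the pregnant ones. Its groups overlapped, and its log2 difference was -0.08 (interval -0.46 to 0.29). Pregnant library 4, the highest pregnant library for the simple keratins, was the lowest of all for KRT9. In the reference gene table (ARS-UCD2.0) KRT9 lies between KRT19 and KRT14 with no protein-coding gene in the gaps, and KRT18 lies next to KRT8. How the authors divided reads between related keratins is not given in the sources used here, so the KRT9 level is uncertain.

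Keratin filaments are anchored at cell contacts by desmosomes and at the basement membrane by hemidesmosomes. Of 12 tested desmosome genes none was called, 9 had log2 differences below 0 and 3 above (median -0.25). DSP, desmoplakin, which ties keratin filaments to the desmosome, stood at 33.8, 74.3, 32.2, 122 and 80.8 RPKM in the cyclic libraries and at 21.8, 27.1, 27.9, 36.6 and 26.5 RPKM in the pregnant ones (log2 difference -1.1, interval -1.83 to -0.38, limma-trend adjusted p = 0.0969). JUP, plakoglobin, averaged 51.6 ± 20.2 and 24.3 ± 9.47 RPKM (log2 difference -1.02). Cyclic libraries 4 and 5 were highest for each of these genes, as for KRT8, and pregnant library 4 was the highest pregnant one. PERP averaged 65.9 and 57.1 RPKM, and the desmosomal cadherin DSG2 32.5 and 34.9 RPKM.

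Of 9 tested hemidesmosome genes none was called, 8 had log2 differences below 0 and 1 above (median -0.39). LAMA3, a laminin chain of the basement membrane, averaged 36.6 ± 17.1 and 13.6 ± 6.9 RPKM (log2 difference -1.37, limma-trend adjusted p = 0.0969). Of the integrin chains that bind laminin, ITGB4 averaged 50.2 ± 29.2 and 39.2 ± 16.6 RPKM, and ITGA6 39.9 ± 6.79 and 51.2 ± 5.65 RPKM (log2 difference 0.36). CD151 averaged 30.7 and 23.7 RPKM.

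**Figure D5:**
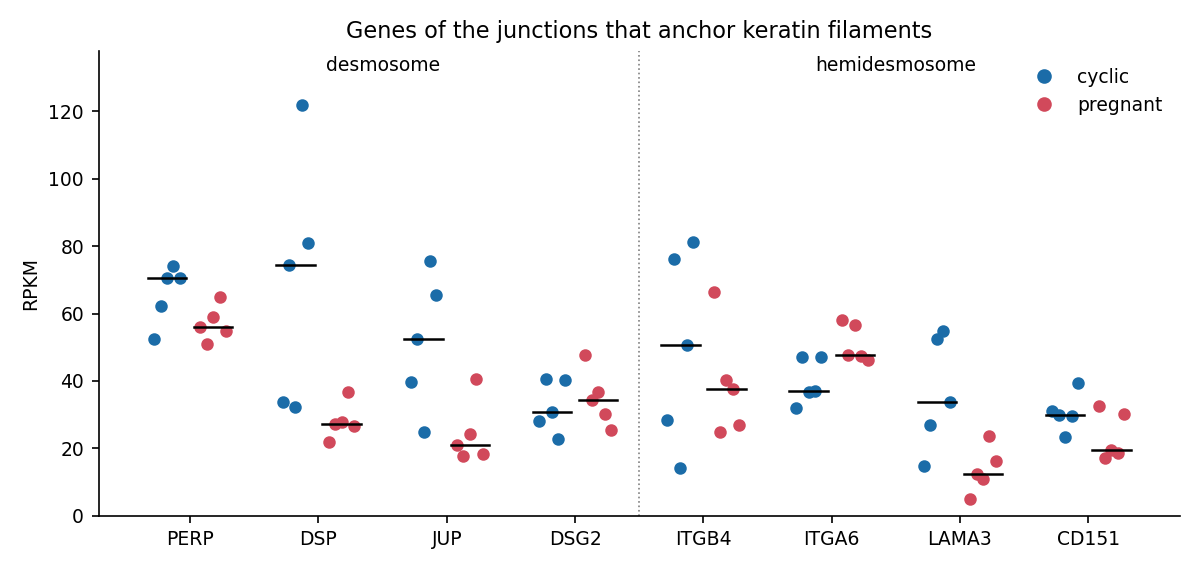
RPKM of the 4 most abundant desmosome and the 4 most abundant hemidesmosome genes in each library, cyclic in blue and pregnant in red, with bars at the group medians. PERP, DSP, JUP, ITGB4, LAMA3 and CD151 have their medians lower in the pregnant libraries, and DSG2 and ITGA6 have theirs higher. The groups overlap for each of these genes, and DSG2 spans 22.7 to 47.7 RPKM over both groups.

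Other lists held no call either. Of 17 matched keratin binding and modifying genes 15 were tested, with a median of -0.04; HSPB1, a small chaperone that associates with keratin filaments, averaged 105 ± 37.1 and 58.3 ± 39.6 RPKM (log2 difference -0.95), with pregnant library 4 at 129 RPKM and the other 4 at 38.2 to 46.4 RPKM. CSNK1A1, a kinase that acts on keratin, averaged 107 and 124 RPKM, and the 14-3-3 proteins YWHAE and YWHAZ 319 and 320 RPKM and 56.4 and 68.9 RPKM. The 6 other intermediate filament genes tested all lay below 0 (median -0.38): LMNA, a nuclear lamin, averaged 16.2 and 9.75 RPKM, LMNB1 6.49 and 4.81, LMNB2 4.13 and 2.85, and VIM, vimentin of mesenchymal cells, 8.21 and 6.42 RPKM. All 10 pan-epithelial genes tested lay below 0 (median -0.53), with SPINT2 at 384 and 285 RPKM, CLDN7 at 91.6 and 63.2 and OCLN at 49.7 and 47.6 RPKM. Of 13 epithelial transcription factors tested 8 lay below 0 (median -0.13), with EHF at 174 and 158 RPKM, FOXJ1 at 113 and 61.4, PAX8 at 87.5 and 88.1 and ESRP1 at 68.7 and 80.3 RPKM.

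Some genes of these lists whose groups did not overlap are named here, chosen after their values were seen. Lower in every pregnant library than in every cyclic one, beside 2.05% of all tested features, were PKP4 (22.6 and 18.2 RPKM) among 12 desmosome genes, COL17A1 (3.19 and 1.71) among 9 hemidesmosome genes, SYNM (3.5 and 2.09) among 6 intermediate filament genes, and SPINT2 among 10 pan-epithelial genes. Higher in every pregnant library, beside 4.91% of all, was PNN (34.8 and 60.7 RPKM), a nuclear and desmosome-associated protein, among 15 keratin binding and modifying genes.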

How the data were processed

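Oligo-dT enriched RNA was made into stranded libraries, per the labels' protocols. The authors deposited 1 table whose values, called only expression in its header, behave as RPKM normalized by the authors to length and library size, as deposited. The sources used here name no aligner, counter, build or annotation. Library totals were recovered as the smallest numbers that turn the 13 mitochondrial genes into whole reads (tolerance 0.02 reads plus rounding), and a length of up to 12000 bases per feature then gave whole reads for 12791 of 12834 tested features, against 1 of 500 with jittered values.

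The test was limma-trend (limma 3.58.1, R 4.3.3) with group as the only term, fitted to log2(RPKM + 1), which understates changes of low genes, where the mean RPKM was at least 1. It was first run on simulated data with independent noise in each gene. There 72 of 100 features changed by a log2 of 1 and 97 of 100 changed by 2 were called, beside 11 false calls. That simulation held no shift shared by genes within a library, so it cannot show how the test performs on these libraries. The 8 keratins and all lists were chosen with earlier results of these data known. Of each pathway list, the up to 4 tested genes of highest mean were named, and the 5 features most correlated with KRT8 and with KRT5; genes of the cell type marker lists were named after their values were seen; 9 rows were matched through descriptions or numbered copies. Alternatives were a pseudocount of 0.1, no filter, a mean of at least 5, array weights, median-ratio and quantile scaling, a threshold of 0.1, each library left out, the library number as a block and voom on recovered reads. Voom with quality weights and leaving out cyclic library 3 with pregnant library 4 were chosen after seeing the data. Figures and joins used matplotlib 3.10.9 and pandas 2.3.3 in Python 3.11.15. No sequence was used here. Some genes of the lists are not reported here.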

Additional observations from a re-analysis of the deposited data

Results flagged for a closer look

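In 10 of 104 groups of 5 libraries examined, a single library lay far from the other 4. For independent groups of normally distributed values chance gives about 1 in 20. The 104 groups were not independent, since sums and ratios were examined beside the genes they hold, so these rates cannot be compared. In pregnant library 4, KRT19 stood at 156 RPKM beside 56 to 75.2 in the other pregnant libraries, the summed simple keratins at 456 beside 278 to 327 RPKM, KRT19 over KRT18 at 1.21 beside 0.495 to 0.697, JUP at 40.6 beside 17.6 to 24.2 RPKM, HSPB1 at 129 beside 38.2 to 46.4 RPKM and LMNB2 at 4.49 beside 2.23 to 2.74 RPKM. KRT15 stood at 0.18 RPKM (8 reads) in pregnant library 5 and at 0 in the other pregnant libraries. In pregnant library 1, ESRP1 stood at 100 beside 72.6 to 77 RPKM and EPCAM at 357 beside 318 to 326 RPKM. In cyclic library 3, CSNK1A1 stood at 142 beside 91.6 to 102 RPKM.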

How the results depend on the processing

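No feature passed an adjusted p of 0.05, and the count became 4789 with array weights, 4922 by voom with quality weights, 3582 without cyclic library 3 and pregnant library 4 together, 1018 at a threshold of 0.1, and 0 to 2217 with single libraries left out (2217 without cyclic library 3, 56 without pregnant library 4). Of the 6 tested keratins none passed; 5 did with array weights and with voom with quality weights, 4 without cyclic library 3 and pregnant library 4, 1 at a threshold of 0.1, and 0 to 3 with single libraries left out. Log2 differences with array weights were -0.8 for KRT7, -0.83 for KRT8, -0.37 for KRT18, -0.84 for KRT19 and -1.54 for KRT5; by voom with quality weights -0.8, -0.82, -0.38, -0.85 and -1.65; and without cyclic library 3 and pregnant library 4 -0.9 for KRT7, -0.98 for KRT8, -0.93 for KRT19 and -1.77 for KRT5. With single libraries left out they ran from -0.78 to -0.51 for KRT7, -0.86 to -0.57 for KRT8, -0.53 to -0.3 for KRT18, -0.81 to -0.45 for KRT19, -1.69 to -1.17 for KRT5 and -0.17 to 0.08 for KRT17. These 5 keratins other than KRT17 were below 0 in all 20 settings run. KRT17 turned to 0.02 with array weights and with voom with quality weights and to 0.01 with quantile scaling. The log2 ratio of summed basal keratins, -1.43, ran from -1.59 to -1.02 with single libraries left out, and the median over the 4 genes was -0.04, since KRT5 makes up most of the sum; that of simple keratins, -0.6, ran from -0.75 to -0.46. The cause of these changes was not tested.

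Same-numbered libraries did not deviate together (correlations of deviations -0.34 to 0.28 over 5 numbers). With the library number as a replicate block, 0 features and 0 keratins were called, and the KRT5 log2 difference stayed -1.48. Depth limits KRT14 and KRT15.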
